A study of Arabidopsis thaliana with 6 samples.

Results

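COR15A, COR15B, COR47 and LTI30 are Arabidopsis genes known for their induction by cold and by water loss, and they were compared here between wild-type seedlings and seedlings carrying a rice SUB1A or SUB1C transgene. These 4 cold-regulated (COR) and dehydrin genes were chosen by name, each read by the brightest probe set for which the array's probe table names that gene alone, out of 13350 genes measured in that way. Earlier results of these data were known when the 4 were chosen. Each of the 4 had a single such probe set, and no probe set listed any of them together with another gene. In the SUB1A line all 4 transcripts passed the test as lower than in wild type and lower than in the SUB1C line. Of all probe sets, 10.8% were lower than in wild type and 6.48% lower than in the SUB1C line by the same test. Some of these calls, among them that of LTI30 against wild type, ended when 1 array was left out. In the SUB1C line none of the 4 passed the test against wild type, which 4.71% of all probe sets passed. COR15B came closest, lower than wild type on both SUB1C arrays.

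Arabidopsis plants that meet low temperature above freezing become more tolerant of frost, a process called cold acclimation. C-repeat binding factors (CBF), transcription factors induced within a short time of chilling, switch on COR genes through C-repeat elements in their promoters, and dehydration and abscisic acid induce many of the same genes. COR15A and COR15B encode small proteins of the chloroplast stroma that stabilise membranes during freezing. COR47 and LTI30 (also called XERO2) encode dehydrins, hydrophilic and largely disordered proteins that bind membranes or other proteins when cells lose water. No sequence of these genes was used here, so none is shown.

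RNA came from whole Col-0 seedlings aged 7 days, whose seeds had all been stratified in water for 3 days at 4 °C. After this shared cold period the plants were grown with no further treatment at 23 °C on plates with 1% sucrose under 16 h of light and 8 h of dark, and collected at midday. The labels differ on the strength of the medium. There were 3 groups with 2 biological replicates each, 1 Affymetrix ATH1 array per replicate. The WT group was wild-type Col-0. The SUB1A and SUB1C groups were Col-0 plants stably transformed with 35S:FLAG-SUB1A or 35S:FLAG-SUB1C, which drive FLAG-tagged rice ethylene response factors (ERF) from the constitutive 35S promoter. The labels do not say how many independent lines stood behind each transgenic group and name no empty-vector line, so an effect of a transgene and any other difference between the lines cannot be told apart. The comparisons asked how these transcripts stood in unstressed seedlings of each line.

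All values are the deposited log2 expression values, on which a difference of 1 is a 2-fold difference in signal. Each difference between groups is followed by ± its standard error from a limma fit to all 22746 probe sets, with n = 2 arrays per group, and p-values were adjusted over all probe sets by the Benjamini-Hochberg method. "Rose" and "fell" mean an adjusted p under 0.05. Each array's lowest value lay between 3.76 and 3.85, and the members lay between 8.82 and 12.66, well above that floor. Correlations across probe sets were 0.998 to 0.999 between arrays of a group and 0.989 to 0.996 between groups. The 3′ minus 5′ signal of the actin control, a measure of RNA quality, was 2.43 and 2.51 in WT, 2.24 and 2.44 in SUB1A, and 2.39 and 2.32 in SUB1C. The same measure of the GAPDH control was 0.0966 and 0.0990 in WT, 0.0205 and 0.0144 in SUB1A, and 0.0666 and 0.0964 in SUB1C, lowest in SUB1A without overlap, and its part in the results was not tested. As a check of the tissue, the root markers EXPA7, EXPA18 and PYK10 and the light-harvesting gene LHCB4.2 gave signals from 7.42 to 14.33 on the 6 arrays. In WT, EXPA7 and EXPA18 lay at 7.42 to 7.59, below the array medians of 7.62 and 7.63, so their signal alone does not establish root tissue. None of the 5 seed markers and 1 of 6 leaf markers had a probe set listing that gene alone. In RNA from whole seedlings, fewer cells expressing a gene and less of its RNA per cell cannot be told apart.

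The COR15 genes showed the largest differences of the 4. COR15A stood at 11.53 and 10.84 in the WT replicates, at 9.42 and 9.97 in the SUB1A replicates and at 11.08 and 10.84 in the SUB1C replicates. Both SUB1A arrays were below every other array, and the lower SUB1C array was level with the lower WT array. COR15A fell by 1.49 ± 0.23 in SUB1A against WT, a 2.81-fold lower signal with a 95% confidence interval of 1.95 to 4.06, and the limma adjusted p was 0.00294. In SUB1C against WT the difference was -0.23 ± 0.23 with an interval of -0.76 to 0.30, which did not pass (limma adjusted p = 0.650).

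COR15B stood at 11.03 and 10.40 in WT, at 8.82 and 9.02 in SUB1A and at 10.12 and 9.97 in SUB1C. The 3 groups did not overlap, with SUB1A lowest, SUB1C between and WT highest. COR15B fell by 1.80 ± 0.18 in SUB1A against WT, 3.48-fold with an interval of 2.63 to 4.60 (limma adjusted p = 0.000321). In a ranking of all 22746 probe sets by this difference, COR15B was number 12 and COR15A number 23 from the lowest. In SUB1C against WT the COR15B limma adjusted p was 0.0710, short of the threshold although the unadjusted p was 0.00489. The difference was -0.67 ± 0.18, with an interval of -1.07 to -0.27, and ranked number 43 from the lowest of all 22746 probe sets. This difference depended on the WT arrays, at -0.35 without WT replicate 1 (limma adjusted p = 0.156) and -0.99 without WT replicate 2 (limma adjusted p = 0.0131).

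**Figure D1:**
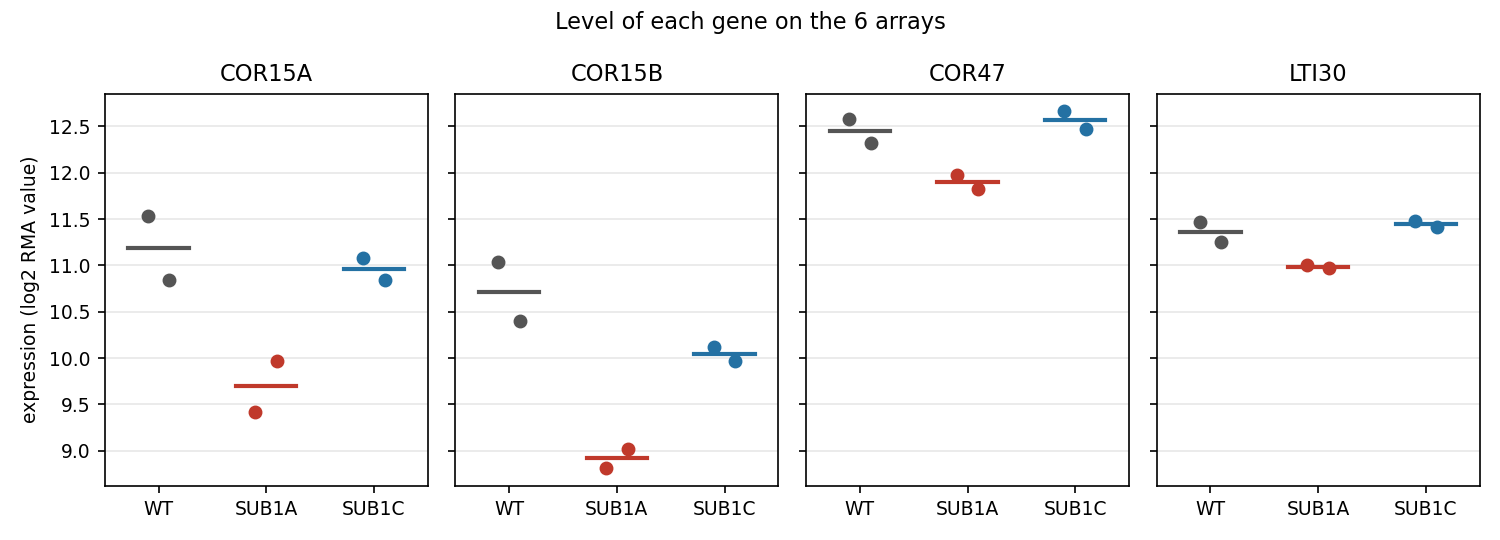
Expression of each gene on the 6 arrays, as log2 values on the vertical axis, with 1 point per array and a bar at the mean of each group of 2 arrays. Both SUB1A arrays lie below the WT and SUB1C arrays in all 4 panels, and COR15B is the gene whose SUB1C arrays also lie below both WT arrays; heights in different panels come from different probes and are not comparable.

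The dehydrin genes fell in the SUB1A line by smaller amounts. COR47 stood at 12.58 and 12.32 in WT, at 11.97 and 11.82 in SUB1A and at 12.66 and 12.48 in SUB1C. SUB1A was lowest without overlap, while the WT and SUB1C ranges overlapped. COR47 fell by 0.55 ± 0.10 in SUB1A against WT, 1.47-fold with an interval of 1.25 to 1.73 (limma adjusted p = 0.00691), and it differed by 0.12 ± 0.10 in SUB1C against WT (interval -0.12 to 0.36, limma adjusted p = 0.583).

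LTI30 stood at 11.47 and 11.25 in WT, at 11.00 and 10.97 in SUB1A and at 11.48 and 11.42 in SUB1C. The SUB1A arrays were again the lowest, and the SUB1C arrays overlapped those of WT. LTI30 fell by 0.37 ± 0.08 in SUB1A against WT, 1.30-fold with an interval of 1.14 to 1.47 (limma adjusted p = 0.0132). That call ended without WT replicate 1 (difference -0.26, limma adjusted p = 0.0606), without SUB1A replicate 1 (adjusted p = 0.0539) and without SUB1A replicate 2 (adjusted p = 0.0648). In SUB1C against WT the LTI30 difference was 0.09 ± 0.08 (interval -0.10 to 0.27, limma adjusted p = 0.617).

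The members were chosen with earlier results of these data known, so their counts beside the shares of all probe sets are descriptions. In SUB1A against WT, 4 of 4 members fell and their median difference was -1.02. Across all probe sets 10.8% fell in that comparison and the median difference was 0.01. At least a 2-fold fall was seen for 2 of 4 members, COR15A and COR15B, and for 0.440% of all probe sets. For 4 of 4 members both SUB1A arrays were below both WT arrays, as was the case for 28.6% of all probe sets. In SUB1C against WT 0 of 4 members passed in limma, against 4.71% of all probe sets in either direction. An unadjusted limma p under 0.05 was found for 1 of 4, COR15B, and for 4681 of 22746 probe sets. The median member difference there was -0.07, beside 0.00 over all probe sets. The arrays did not overlap in 1 of 4 cases, COR15B below WT, against 26.7% of all probe sets. The comparisons with WT share the 2 WT arrays. WT replicate 1 was higher than WT replicate 2 for all 4 members, by 0.69 for COR15A, 0.63 for COR15B, 0.26 for COR47 and 0.22 for LTI30, so an array that is high or low in WT moves both sets of differences together.

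The direct comparison of the transgenic lines does not use the WT arrays for its means. In SUB1A against SUB1C 4 of 4 members were lower, against 6.48% of all probe sets, with a median difference of -0.90 beside 0.01 over all probe sets. COR15A and COR15B were at least 2-fold lower, as were 0.290% of all probe sets. Both SUB1A arrays were below both SUB1C arrays for 4 of 4 members and for 27.2% of all probe sets. COR15A was lower by a log2 difference of -1.26 ± 0.23 (2.40-fold, interval 1.66 to 3.47, limma adjusted p = 0.00992) and COR15B by -1.13 ± 0.18 (2.18-fold, interval 1.65 to 2.89, limma adjusted p = 0.00507). COR47 was lower at -0.67 ± 0.10 (1.60-fold, interval 1.35 to 1.88, limma adjusted p = 0.00468) and LTI30 at -0.46 ± 0.08 (1.38-fold, interval 1.21 to 1.56, limma adjusted p = 0.00825). For COR47 and LTI30 this difference was larger than the one from WT, because their SUB1C means lay slightly above the WT means. The COR15A call ended without SUB1A replicate 1 (-0.99, limma adjusted p = 0.0619) and without SUB1C replicate 1 (-1.14, adjusted p = 0.0814), and the LTI30 call ended without SUB1C replicate 1 (-0.43, adjusted p = 0.0732). In that same fit without SUB1C replicate 1, the differences of COR15B and COR47 were -1.05 and -0.58.

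**Figure D2:**
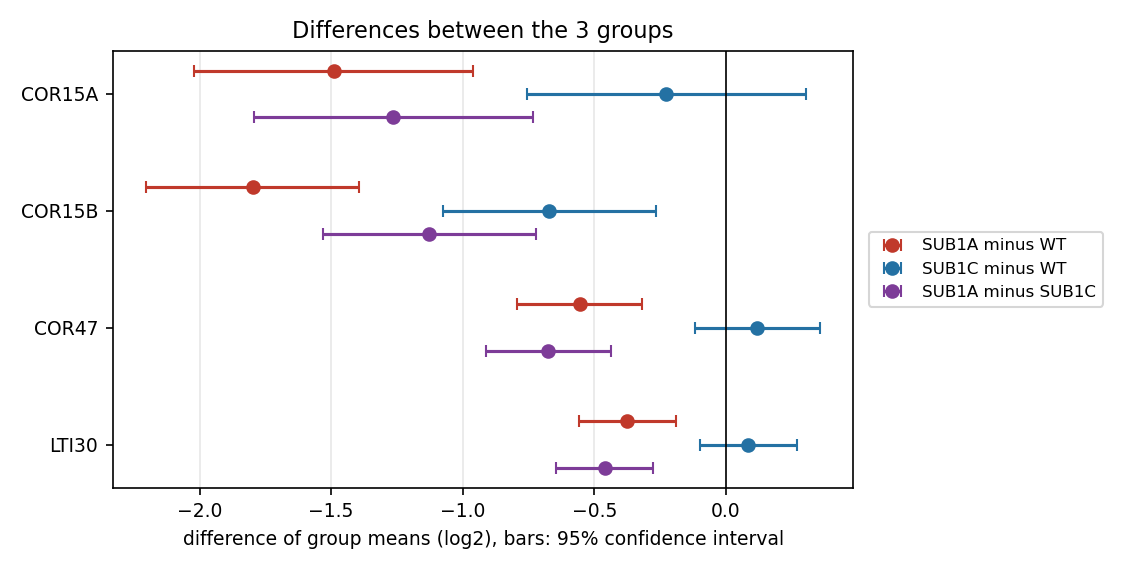
Differences between group means on the log2 scale (horizontal axis) for the 4 genes, with 95% confidence intervals from the limma fit as bars and 1 colour for each comparison. Intervals of SUB1A minus WT and SUB1A minus SUB1C lie below 0 for all 4 genes, while those of SUB1C minus WT include 0 for COR15A, COR47 and LTI30 and run from -1.07 to -0.27 for COR15B.

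In SUB1A against WT, the COR15B difference minus that of COR15A was -0.31, and the COR47 difference minus that of LTI30 was -0.18. The COR15A difference minus that of COR47 was -0.94, and the 95% intervals of COR15A (-2.02 to -0.96) and COR47 (-0.79 to -0.32) did not overlap. The difference between genes was not itself tested. In SUB1C against WT the COR15B difference minus that of COR15A was -0.44, that of COR15A minus COR47 was -0.35 and that of COR47 minus LTI30 was 0.03, so COR15A lay nearer to COR47 than to COR15B there. Over the 6 arrays, with each gene centred on its own mean, the root mean square distance between profiles was 0.21 for COR15A and COR15B and 0.11 for COR47 and LTI30. Between a COR15 gene and a dehydrin gene it was 0.45 to 0.60.

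**Figure D3:**
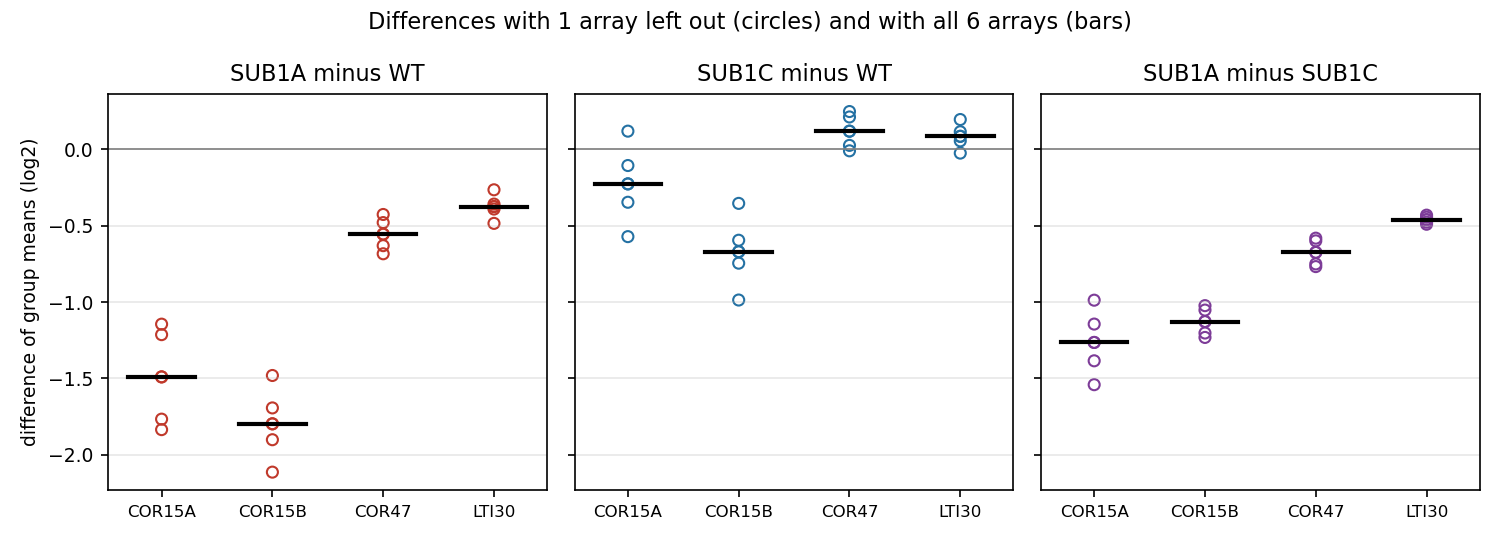
Differences between group means on the log2 scale (vertical axis) for each gene, as a black bar with all 6 arrays and as circles with 1 array left out in turn, in 1 panel per comparison. For SUB1A minus WT the circles run from -2.11 to -1.48 for COR15B and from -0.48 to -0.26 for LTI30, all below 0, while those of SUB1C minus WT lie on both sides of 0 for COR15A, COR47 and LTI30.

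COR15B and COR15A are adjacent protein-coding genes on chromosome 2 in the TAIR10.1 annotation, and the genes on either side of the pair were read where a probe set listed them alone. AT2G42520, next to COR15B, differed by 0.08 ± 0.07 in SUB1A against WT (limma adjusted p = 0.451), and AT2G42560, 2 genes from COR15A, by 0.16 ± 0.10 (limma adjusted p = 0.321). Neither passed the test. COR47 is next to ERD10, another dehydrin gene, and LTI30 is next to the dehydrin gene XERO1. ERD10 and XERO1 were not analysed here. On the other side of COR47, AT1G20430 differed by 0.04 ± 0.07 in SUB1A against WT (limma adjusted p = 0.715).

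Most other measured cold and dehydration genes rose in the SUB1A line, where the 4 members fell. A list of 53 further effectors and regulators held 6 genes with a probe set for which the probe table names that gene alone. The other 47, among them the CBF genes, RD29A, KIN1 and RAB18, were not analysed here. The probe table names no gene for 8730 probe sets, so the array may still hold probes for these 47. The 6 need not stand for the whole list. The list, too, was chosen with earlier results of these data known. Of the 6, 5 rose and 1 fell in SUB1A against WT, with a median difference of 0.56. Across all probe sets 9.47% rose and 10.8% fell. The 1 that fell was HIRD11, a small dehydrin, so that all 3 measured dehydrin genes, COR47, LTI30 and HIRD11, were lower in SUB1A.

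HIRD11 stood at 13.50 and 13.45 in WT, 13.28 and 13.19 in SUB1A and 13.34 and 13.29 in SUB1C. Both transgenic lines were below WT on every array. HIRD11 fell by 0.24 ± 0.06 in SUB1A (limma adjusted p = 0.0305), a call that ended whichever of the 6 arrays was left out (adjusted p from 0.0565 to 0.152) and with renewed quantile normalization (adjusted p = 0.0712). In SUB1C its difference was -0.16 ± 0.06 (limma adjusted p = 0.207).

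LEA4-5, a late embryogenesis abundant protein gene of water-stressed tissue, showed the largest rise of the 6. It stood at 6.27 and 6.22 in WT, 7.16 and 7.52 in SUB1A and 6.48 and 6.42 in SUB1C. The SUB1A arrays were above all others. LEA4-5 rose 2.14-fold in SUB1A (interval 1.81 to 2.53, limma adjusted p = 0.000304), and in SUB1C its difference of 0.20 ± 0.11 did not pass (limma adjusted p = 0.323).

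TIL, the temperature-induced lipocalin of the plasma membrane, stood at 11.90 and 11.78 in WT, 12.35 and 12.32 in SUB1A and 11.68 and 11.73 in SUB1C. It rose by 0.49 ± 0.07 in SUB1A (limma adjusted p = 0.00144), while its SUB1C difference was -0.14 ± 0.07 (limma adjusted p = 0.288). STZ, also known as ZAT10, a zinc finger repressor induced by cold and drought, stood at 6.71 and 7.16 in WT, 7.98 and 7.61 in SUB1A and 7.31 and 7.33 in SUB1C. WT was lowest for STZ, SUB1C between and SUB1A highest, without overlap. STZ rose by 0.86 ± 0.15 in SUB1A (limma adjusted p = 0.00567), and in SUB1C the difference was 0.39 ± 0.15 (limma adjusted p = 0.202), which became 0.16 with WT replicate 1 left out and 0.61 with WT replicate 2 left out.

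COR27 and COR28, cold-regulated genes that act on the circadian clock, rose together in the SUB1A line. COR27 stood at 7.58 and 7.86 in WT, 8.47 and 8.19 in SUB1A and 7.88 and 7.47 in SUB1C, and it rose by 0.61 ± 0.15 in SUB1A (limma adjusted p = 0.0223). COR28 stood at 7.53 and 7.66 in WT, 8.24 and 7.94 in SUB1A and 7.64 and 7.39 in SUB1C, and it rose by 0.50 ± 0.12 (limma adjusted p = 0.0183). For both genes the SUB1A arrays were above the rest and the WT and SUB1C arrays overlapped. Both calls ended without WT replicate 1 (differences 0.48 for COR27 and 0.44 for COR28) and without SUB1A replicate 1 (0.47 and 0.35). In SUB1C the differences were -0.04 ± 0.15 for COR27 and -0.08 ± 0.12 for COR28, with limma adjusted p of 0.917 and 0.770.

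In SUB1C against WT 0 of these 6 genes passed in limma, against 4.71% of all probe sets in either direction. An unadjusted limma p under 0.05 was found for 2 of 6, HIRD11 and STZ, and for 4681 of 22746 probe sets. In SUB1A against SUB1C 4 of 6 were higher and 0 lower, where 5.57% of all probe sets were higher. These were LEA4-5 at 0.89 ± 0.11, COR27 at 0.65 ± 0.15, TIL at 0.63 ± 0.07 and COR28 at 0.58 ± 0.12, with limma adjusted p of at most 0.0261. STZ at 0.47 ± 0.15 (limma adjusted p = 0.0875) and HIRD11 at -0.08 ± 0.06 (adjusted p = 0.471) did not pass. The COR27 and COR28 calls ended without SUB1A replicate 1 (differences 0.51 and 0.43) and without SUB1C replicate 2 (0.45 for either).

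**Figure D4:**
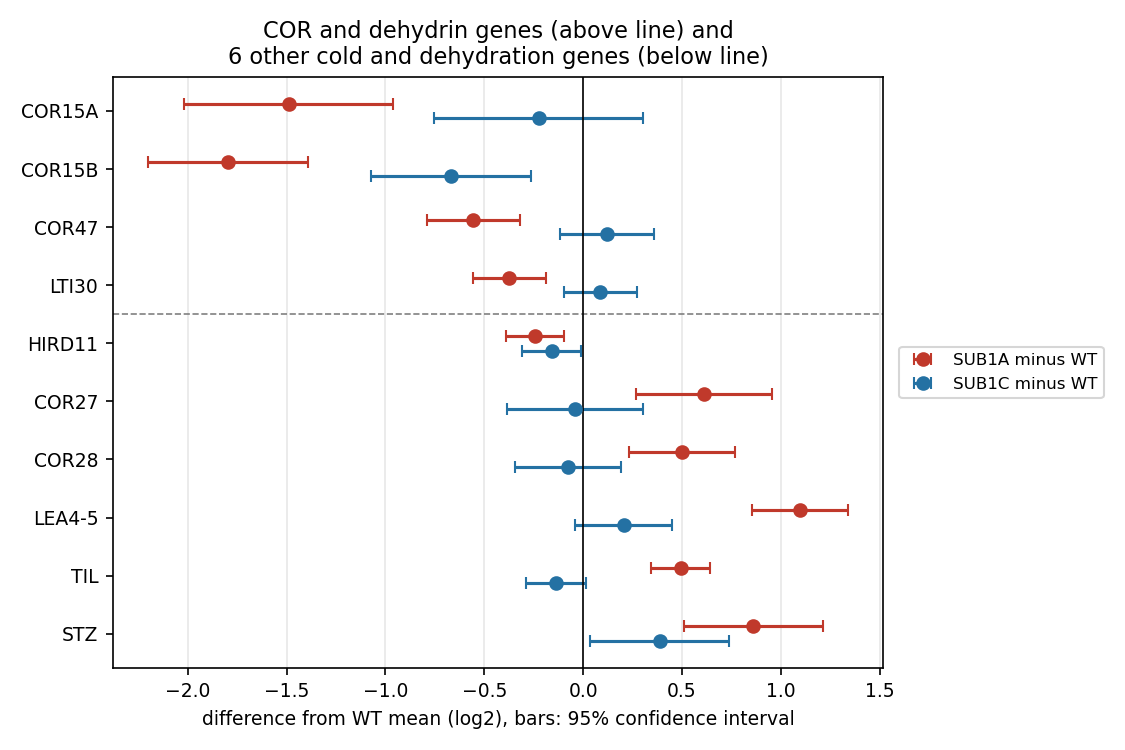
Differences from the WT mean on the log2 scale (horizontal axis), with 95% confidence intervals as bars, for SUB1A and SUB1C, with the 4 COR and dehydrin genes above the dashed line and 6 other cold and dehydration genes below it. For SUB1A the 4 genes above the line and HIRD11 lie below 0, from -1.80 to -0.24, and COR27, COR28, LEA4-5, TIL and STZ lie above 0, from 0.49 for TIL to a 2.14-fold rise for LEA4-5.

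Markers of organs also differed between the groups. Of the 3 root markers, 2 rose in SUB1A against WT, where 9.47% of all probe sets rose. These were EXPA7 and EXPA18, both expansin genes of root hairs (0.29 ± 0.08 for either). PYK10, a root beta-glucosidase gene, did not pass (0.11 ± 0.06). Averaged over the 3, the root marker level was 9.64 and 9.73 in WT, 9.91 and 9.93 in SUB1A and 10.18 and 10.27 in SUB1C. EXPA7 rose in SUB1C against WT by 0.78 ± 0.08 (limma adjusted p = 0.00239) and EXPA18 by 0.75 ± 0.08 (limma adjusted p = 0.00264), and these are the genes that set the higher SUB1C average. PYK10 had means of 14.07 in WT, 14.18 in SUB1A and 14.16 in SUB1C. The leaf marker LHCB4.2 fell by 0.35 ± 0.07 in SUB1A against WT (limma adjusted p = 0.0112) and differed by -0.14 ± 0.07 in SUB1C (limma adjusted p = 0.312). The LHCB4.2 difference was smaller than those of COR15A, COR15B and COR47, and close to that of LTI30. It came from 1 of 6 listed leaf markers, and the sizes were not tested against each other. The EXPA18 call in SUB1A ended when any single WT or SUB1A array was left out, that of EXPA7 with WT replicate 2 or either SUB1A array left out, and that of LHCB4.2 with WT replicate 1 or SUB1A replicate 1 left out. The part of organ composition in the results was not tested.

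The genes whose profiles over the 6 arrays were most like those of the COR15 pair were named by the smallest root mean square distance among probe sets listing 1 gene, after centring each on its own mean. The nearest to COR15B was PME61, a pectin methylesterase gene, at a distance of 0.10, followed by AT1G22160 at 0.14 and the expansin gene EXPA8 at 0.17. For COR15A they were PME61 at 0.16, AT1G68600 at 0.18 and AT1G22160 at 0.20. PME61 differed by -1.64 ± 0.14 in SUB1A and -0.50 ± 0.14 in SUB1C against WT, EXPA8 by -1.83 ± 0.08 and -0.47 ± 0.08, AT1G22160 by -1.60 ± 0.17 and -0.59 ± 0.17, and AT1G68600 by -1.22 ± 0.21 and -0.24 ± 0.21. The SUB1C differences depended on the arrays used. With 1 array left out that of PME61 ran from -0.70 to -0.29, past the threshold without WT replicate 2 only (limma adjusted p = 0.0421), that of AT1G22160 from -0.84 to -0.35 and that of AT1G68600 from -0.50 to 0.031. The SUB1C call of EXPA8 (limma adjusted p = 0.0175) ended without WT replicate 1 or either SUB1C array.

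The dehydrin profiles vary little over the 6 arrays, so small distances to them carry less information. The nearest to COR47 were AT4G13800 at a distance of 0.05, AT5G66985 at 0.06 and AT3G18170 at 0.07, with SUB1A differences from WT of -0.50 ± 0.07, -0.51 ± 0.10 and -0.56 ± 0.10. For LTI30 they were AT1G57590, BAT1, a brassinosteroid-related acyltransferase gene, and AT2G28970, each at 0.04, with SUB1A differences of -0.32 ± 0.08, -0.34 ± 0.09 and -0.41 ± 0.09. All of these likenesses rest on 6 arrays in 3 groups and are descriptions.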

How the data were processed

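The authors deposited log2 expression values for each probe set, summarised with RMA (named, without a version, in the submitters' processing notes), 1 column per array. Per the labels, 100 ng of RNA was labelled for each array. Of 22810 probe sets in the table, 64 were array controls, and the test covered the other 22746. The platform's probe table named 1 gene for 13513 of them, several genes for 503 and no gene for 8730. A locus of the TAIR10.1 gene table was found for 13436 of the 13513.

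The members and gene lists were chosen with earlier results of these data known. Named genes were the 4 members, measured genes of the cold, root and leaf lists, and the 3 nearest profiles per member. Flanking genes were added after seeing the data. Groups came from the sample titles. The model was fitted in limma 3.58.1 under R 4.3.3 to all 6 arrays, without covariates. It had 3 residual degrees of freedom and a prior of 5.37, and tests were two-sided. The method was tested on simulated data. Over all probe sets, arrays sharing a replicate number did not deviate together (correlations -0.01, 0.04 and 0.02). For COR47 and LTI30 replicate 1 was above replicate 2 in all 3 groups, and for COR15A and COR15B in WT and SUB1C only. With 2 arrays per group, p-values rest on the spread between replicates, pooled over groups and moderated by the spread of all probe sets. They say nothing of variation beyond these replicates. Planned descriptions of promoter motifs and proteins were not run here.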

Additional observations from a re-analysis of the deposited data

How the results depend on the processing

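In the 16 alternative fits, the differences of SUB1A from WT and from SUB1C stayed negative for all 4 members. Only renewed quantile normalization, median centring and leaving out an array of the groups compared could move these differences. In the other fits they equalled the main values, and only the p-values or the threshold could change. With a replicate block, 4 members were called in SUB1A against WT, 0 in SUB1C against WT and 4 between the transgenic lines, as without it. Of all 22746 probe sets, that fit called 4473, 1025 and 2625 in the same order. COR15B in SUB1A minus WT stayed at -1.80 by design, since each group holds 1 array of each replicate number. With a threshold of 0.01, LTI30 in SUB1A minus WT (-0.37) no longer passed. With a trended prior variance COR15B in SUB1C minus WT (-0.67) passed, so 1 member was called, beside 1376 of all 22746 probe sets. The mean over a gene's probe sets was not run, since each member had 1. Fits to other named genes were added after seeing the data.

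Leaving out each array in turn, LTI30 in SUB1A minus WT ranged from -0.48 to -0.26. In SUB1C minus WT the ranges were -0.57 to 0.12 for COR15A and -0.99 to -0.35 for COR15B. There they were -0.0091 to 0.25 for COR47 and -0.024 to 0.20 for LTI30. In SUB1A minus SUB1C they were -1.54 to -0.99 for COR15A and -0.49 to -0.43 for LTI30, and 2 to 4 members were called. Among other genes, the sign in SUB1C minus WT changed for COR27 (-0.25 to 0.16), COR28 (-0.20 to 0.049), AT1G68600 (-0.50 to 0.031), AT5G66985 (-0.11 to 0.17), AT3G18170 (-0.13 to 0.21), BAT1 (-0.11 to 0.19) and AT2G28970 (-0.055 to 0.16), and in SUB1A minus SUB1C for PYK10 (-0.014 to 0.054). None of these passed in any such fit.

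The number of probe sets called was 4606 in SUB1A minus WT, 1071 in SUB1C minus WT and 2742 in SUB1A minus SUB1C. With 1 array left out it ranged from 2701 to 3961, 191 to 882 and 1078 to 3026. With a threshold of 0.01 it was 2344, 296 and 1191, and among single-gene probe sets alone, where fewer were tested, 2318, 588 and 1304. The cause of the other changes was not tested.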
